A study of Mus musculus with 14 samples.

Results

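The keratin family was examined for H3K4me1, the monomethylated form of lysine 4 of histone H3, in mouse fibroblasts. The family was taken as the protein-coding genes whose symbol is Krt plus a number (53 keratins) or Krtap plus numbers (57 keratin-associated proteins). These are 110 of the 21938 protein-coding genes on the mouse chromosomes in GENCODE M21 (mm10). All members were located, 50 on chromosome 11, 26 on chromosome 15, 24 on chromosome 16, 5 on chromosome 7, 3 on chromosome 10 and 2 on chromosome 1.

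NG3 cells are 1 clone of immortalised mouse embryo fibroblasts (iMEF-Ash2l fl/fl-Cre-ER) in which exon 4 of the endogenous Ash2l gene is deleted and a lentiviral construct supplies FKBP-HA2-ASH2L, human ASH2L fused to the FKBP12 F36V degron. ASH2L is a core subunit of the KMT2 methyltransferase complexes, and dTAG-13 is a compound that sends proteins carrying this degron to the proteasome. H3K4me1 was profiled by ChIP-seq in a control without dTAG and after dTAG for 30 min, 2 h, 4 h, 8 h and 16 h, with 2 libraries each (12 in all), and 2 input libraries came from the control and the 16 h cells. Every group carried the exon 4 deletion and the fusion protein. The deposited table gives 160144 sites, stretches called as enriched, as one set over all samples. It holds no value per library, so no member could be compared between time points or replicates, no test was run, and the read depth behind a site is unknown. What follows describes where sites lie in this one set.

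Keratins are the intermediate filament proteins of epithelia. A type I (acidic) and a type II (basic) keratin pair to form the filament, and in the mouse most type I genes lie together on chromosome 11 and the type II genes, with the type I gene Krt18, on chromosome 15. Keratin-associated proteins are small proteins, rich in cysteine or in glycine and tyrosine, that embed the keratins of the hair shaft, and many of their genes have a single exon. H3K4me1 is found at enhancers and on the flanks of active promoters, and fibroblasts are mesenchymal cells that build their intermediate filaments mainly from vimentin.

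A promoter was taken as the 1 kb on either side of the most upstream annotated transcription start site (TSS), and the gene body as the annotated span. Of the 110 members, 26 (23.6%, 95% Wilson interval 16.7 to 32.4) had a site in the promoter, against 63.9% of all protein-coding genes. A site lay in the gene body of 36 members (32.7%, 24.7 to 41.9), against 72.8% of all genes. The TSS base itself lay inside a site at 18 members (16.4%, 10.6 to 24.4), against 39.5%. With the RefSeq start for the 86 members that could be matched to it, the promoter count was again 26 and the start base lay inside a site at 15, without Krt7, Krt8 and Krt14. The intervals cover counting only and treat neighbouring genes of a cluster as independent, which they are not. All 3 shares were below those of protein-coding genes at large. The spans of members were shorter, with a median of 2350 bp against 17425 bp, and the part of gene length in the body count was not tested.

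CpG islands split this background. Among all protein-coding genes, 93% of promoters with an island within 1 kb held a site (10989 of 11822), against 29.9% of promoters without one (3020 of 10116). Only 4 members had such an island, Krt18, Krt27, Krt83 and Krt87, and Krt18 and Krt87 held a promoter site. Of the 106 members without an island, 24 held a site (22.6%, 15.7 to 31.5), an interval that includes the 29.9% of all genes without an island. Those 10116 genes include 1463 olfactory and vomeronasal receptor genes, of which only 23 held a site (1.57%). These receptors lower the 29.9%, and the share without them was not counted. An island lay at 3.64% of members against 53.9% of all genes, and the part of islands in the share of the family was not tested beyond this split. The set pools control and dTAG libraries, and the study reports that H3K4me1 gains after ASH2L loss lay nearly all at promoters. Promoter sites gained with dTAG cannot be told here from those of the control, in members or in all genes.

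Sequence features of the promoters were taken from RefSeq (GRCm38.p6, 250 bases before to 50 after the RefSeq start), matched by symbol for 86 members and 15491 protein-coding genes in all. Searched on both strands, the motif TATAAA was present in 61 of the 86 (70.9%) against 12.5% of all promoters, GGGCGG in 2 (2.33%) against 49.4%, and TGANTCA in 11 (12.8%) against 6.80%. TATAAA on the coding strand, whole within bases -40 to -21, was found in 44 of 86 (51.2%) against 2.72%. Median GC content was 44.7% against 57.3%. A CpG island lay at 53.9% of all protein-coding genes and at 3.64% of members. Motifs and GC content were not counted apart for promoters without an island, so these contrasts cannot be told from the difference in islands. Among members, TATAAA at this position was present in 10 of 19 with a promoter site (52.6%) and 34 of 67 without one (50.7%). A match is a string of letters and not a bound factor.

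The 150 bases before the RefSeq start are printed for 4 keratin-associated genes of chromosome 11 whose site begins close to the TSS, for the pair Krt8 and Krt18, and for Krt5, which has no site. Capitals mark TATAAA or its reverse complement TTTATA, which overlap in 1 place upstream of Krtap1-5. The RefSeq start lay 140 bp downstream of the most upstream GENCODE start at Krt8 and 36 bp downstream at Krt18, at -23 bp from it at Krtap1-4, at -7 bp at Krt5, and on it at the others.
Krtap1-5 (chr11:99581017-99581166, minus strand): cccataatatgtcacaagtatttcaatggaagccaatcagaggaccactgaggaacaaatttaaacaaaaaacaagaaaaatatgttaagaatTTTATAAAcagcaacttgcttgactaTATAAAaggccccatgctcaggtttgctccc
Krtap1-4 (chr11:99583678-99583827, minus strand): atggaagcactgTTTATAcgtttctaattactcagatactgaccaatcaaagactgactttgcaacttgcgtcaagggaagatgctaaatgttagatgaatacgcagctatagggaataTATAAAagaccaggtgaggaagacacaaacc
Krtap3-1 (chr11:99566631-99566780, minus strand): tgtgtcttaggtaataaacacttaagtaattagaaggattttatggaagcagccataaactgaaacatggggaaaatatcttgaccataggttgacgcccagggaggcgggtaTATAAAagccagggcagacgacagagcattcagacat
Krtap4-2 (chr11:99635085-99635234, minus strand): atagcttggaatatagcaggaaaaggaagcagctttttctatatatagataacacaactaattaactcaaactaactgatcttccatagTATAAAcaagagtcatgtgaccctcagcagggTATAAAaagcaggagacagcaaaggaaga
Krt8 (chr15:102004343-102004492, minus strand): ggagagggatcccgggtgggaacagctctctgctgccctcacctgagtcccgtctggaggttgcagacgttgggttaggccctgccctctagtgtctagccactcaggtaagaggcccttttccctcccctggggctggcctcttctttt
Krt18 (chr15:102028066-102028215, plus strand): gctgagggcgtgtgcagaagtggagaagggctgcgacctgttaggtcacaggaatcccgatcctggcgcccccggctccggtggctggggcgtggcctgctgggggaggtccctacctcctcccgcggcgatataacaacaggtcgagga
Krt5 (chr15:101712906-101713055, minus strand): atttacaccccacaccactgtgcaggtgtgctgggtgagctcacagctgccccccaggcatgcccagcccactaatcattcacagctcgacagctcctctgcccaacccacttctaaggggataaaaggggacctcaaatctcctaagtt
All 4 keratin-associated genes carry TATAAA on the coding strand at bases -37 to -29 (the position of its first letter). None of the 3 keratins carries the exact letters in the bases printed. The printed genes were chosen and do not stand for their groups. Of all matched members, 31 of 50 keratin-associated genes (62%) and 13 of 36 keratins (36.1%) carry TATAAA within the coding-strand window given above. Over the alignment of each pair, the upstream sequences of the 4 keratin-associated genes were 47.8% to 54.4% identical, against 40.8% to 51.2% for pairs with at least 1 keratin. Of these 150 bases, a site covered 28 at Krtap1-5, 7 at Krtap1-4, none at Krtap3-1, 44 at Krtap4-2, 135 at Krt8, and none at Krt18 and Krt5.

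The keratins of simple epithelia had the highest share of promoters with a site among the role groups, with wide intervals. All 6 (Krt7, Krt8, Krt18, Krt19, Krt20 and Krt23) had a site in the gene body, and 5 had one in the promoter (83.3%, 43.6 to 97.0). Krt8 and Krt18 encode the first keratin pair of embryonic and simple epithelia. The site at Krt8 (chr15:102004358-102009476) was 5119 bp wide and ran from 4994 bp upstream to 124 bp downstream of the most upstream TSS, ending 16 bp before the RefSeq start. The site at Krt18 was much smaller, 231 bp at +546 to +776, inside an intron, and its TSS was free of sites. Called cover at the partner genes thus differed in extent.

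Krt19, a type I keratin of ducts and other simple epithelia, had the widest site of the chromosome 11 cluster, 4775 bp from 577 bp upstream to 4197 bp downstream of the TSS, which covered 53.4% of its gene. A second site of 382 bp lay 946 bp upstream of its TSS. Krt7, the type II keratin of glandular and ductal epithelia, had 3 sites, of 1372 bp over the most upstream TSS, 1262 bp at +2808 and 407 bp at +15270. The RefSeq start of Krt7 lies 1360 bp further downstream, so that the first of these sites ends 808 bp before it. Krt20, of the intestinal lining, had 362 bp over its TSS. Krt23 had no promoter site, and its 330 bp site lay in an intron at +1759.

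The basal layer keratins did not share one pattern. Krt5 and Krt14 form the filament pair of basal keratinocytes. Krt14 had a site of 568 bp over its most upstream TSS and a second of 230 bp at +845. Its RefSeq start lies 1518 bp downstream, with the sites ending 1253 bp and 444 bp before it, so only the smaller falls within 1 kb of that start. Krt15, another basal type I keratin, had 648 bp over its TSS and 586 bp at +3491, near the end of the gene. Krt5 had no site in promoter or body, and the nearest was 460 bp wide and 2834 bp upstream. The type I basal genes on chromosome 11 therefore held sites where their type II partner on chromosome 15 did not.

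Of 13 keratins of suprabasal and other stratified epithelia, 4 had a promoter site (30.8%, 12.7 to 57.6) and 8 had a site in the body. The 4 were Krt80, Krt13, Krt79 and Krt9. Krt80 held the widest site at any member, 10559 bp from 5694 bp upstream to 4864 bp downstream of the TSS (chr15:101365298-101375856), and it was the only member whose whole 2001 bp promoter was covered. Krt80 also had sites of 778 bp and 1251 bp further along its gene. Krt13, of the mucosa of mouth and oesophagus, had 2565 bp over its TSS, which covered 43.9% of the gene.

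Krt79 had 1349 bp that began 211 bp after the TSS, and Krt9, of palm and sole skin, had only 214 bp over the TSS. Krt1 and Krt10, the pair of differentiating epidermis, had no promoter site at the most upstream TSS. Each had 1 small site inside the gene, 639 bp at +4370 in Krt1 and 318 bp at +2438 in Krt10. With any annotated TSS accepted, 29 members had a promoter site in place of 26, the 3 additions being Krt1, Krt10 and the hair keratin Krt33a.

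Among the 4 keratins of wounded or stressed epidermis, 1 had a site. Krt16 had 1232 bp over the TSS, from 714 bp upstream to 517 bp downstream. The nearest site to Krt17 was 7767 bp away, to Krt6a 21425 bp and to Krt6b 35445 bp. Krt6a and Krt6b are near copies of each other, and 75.1% and 76.5% of the 75-base words of their promoters occur at a single place of the genome. Reads from copied sequence are hard to place, and the part of this in their lack of sites was not tested.

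None of the 8 keratins of the companion layer and inner root sheath of the hair follicle (Krt25, Krt26, Krt27, Krt28, Krt71, Krt72, Krt73 and Krt75) had a promoter site. Krt75 had sites of 761 bp and 1009 bp, and Krt27 had 678 bp, all in the distal part of the gene. The other 6 had no site, and Krt72 lay 59326 bp from the nearest.

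Of 17 genes grouped with the hair shaft keratins, 4 had a promoter site (23.5%, 9.56 to 47.3) and 9 a site in the body. Krt86 had 284 bp that ended 19 bp before the TSS, Krt87 had 602 bp over the TSS, Krt32 had 210 bp that ended 754 bp upstream, and Krt90 had 1009 bp that ended 848 bp upstream. The last of these also lay at the far end of Krt75, the next gene, and was the only site that counted at 2 members. Krt87, Krt88 and Krt90 were placed in this group by number alone. Sites at the hair keratins were thus mostly short or away from the TSS, and only that at Krt87 covered it.

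In 13 members a site lay in the body and not in the promoter (Krt1, Krt10, Krt23, Krt24, Krt27, Krt31, Krt33a, Krt39, Krt75, Krt77, Krt81, Krt84 and Krt88). These members held 14 sites, and 12 of the 14 were centred past the middle of the gene or beyond its end. The choice of members leaves out sites within 1 kb of the TSS and keeps those that hang over the 3' end. It therefore favours late centres in advance, and the matching share over all genes was not counted. The sites at Krt31, Krt81 and Krt88 were centred outside the gene and reached its 3' end, and that of 2976 bp at Krt81 and that of 3218 bp at Krt88 lay between these 2 convergent genes. The sites at Krt1 and Krt77 were centred on coding exons. Krt222, a keratin-related gene outside the groups above, had 684 bp over its TSS, and Krt42 had no site within 8084 bp.

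**Figure D1:**
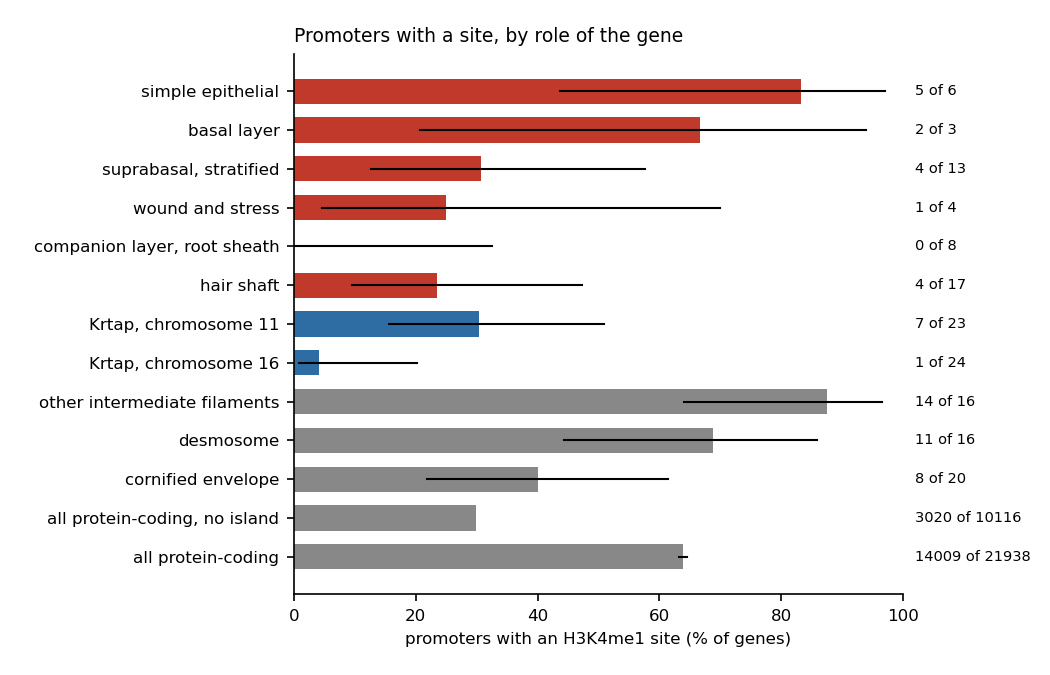
Bars give the percent of genes in each list with an H3K4me1 site within 1 kb of the most upstream TSS, lines the 95% Wilson interval, and the text at the right the counts. Red bars are keratins by role, blue bars keratin-associated genes of 2 clusters and grey bars other lists and all protein-coding genes (no interval is drawn for genes without a CpG island). Simple epithelial keratins stand at 5 of 6 and companion layer and root sheath keratins at 0 of 8.

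A site lay in 9 of 57 promoters of keratin-associated genes (15.8%, 8.54 to 27.4) and in 17 of 53 of keratins (32.1%, 21.1 to 45.5), and the intervals overlap. The nearest site lay at a median of 12270 bp from the TSS of a keratin-associated gene and 3557 bp from that of a keratin. The 9 genes were Krtap3-1, Krtap3-2, Krtap1-4, Krtap1-5, Krtap2-4, Krtap4-2 and Krtap17-1 on chromosome 11, Krtap22-2 on chromosome 16 and Krtap5-4 on chromosome 7.

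At 4 of these genes the site began within 44 bp of the TSS and ran into the gene. The site at Krtap1-5 ran from 28 bp upstream to 696 bp downstream (chr11:99580320-99581044). That at Krtap1-4 ran from 30 bp upstream to 988 bp downstream and covered the whole gene. That at Krtap4-2 ran from 44 bp upstream to 702 bp downstream, and that at Krtap3-1 from +17 to +773. Between 67.0% and 100% of each gene lay inside its site, so the called sites sat on the transcribed side of these TSSs. Krtap1 and Krtap3 proteins are high-sulphur and Krtap4 proteins ultrahigh-sulphur components of the hair matrix.

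At Krtap2-4 the site was wider and mostly upstream, 2128 bp from 1577 bp before to 550 bp after the TSS. The site at Krtap22-2 ran from 411 bp before to 204 bp after the TSS, and that at Krtap5-4 from 270 bp before to 261 bp after. At Krtap17-1 a site of 328 bp ended 229 bp upstream, and at Krtap3-2 one of 541 bp ended 875 bp upstream and reached only 126 bp into the promoter window.

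**Figure D2:**
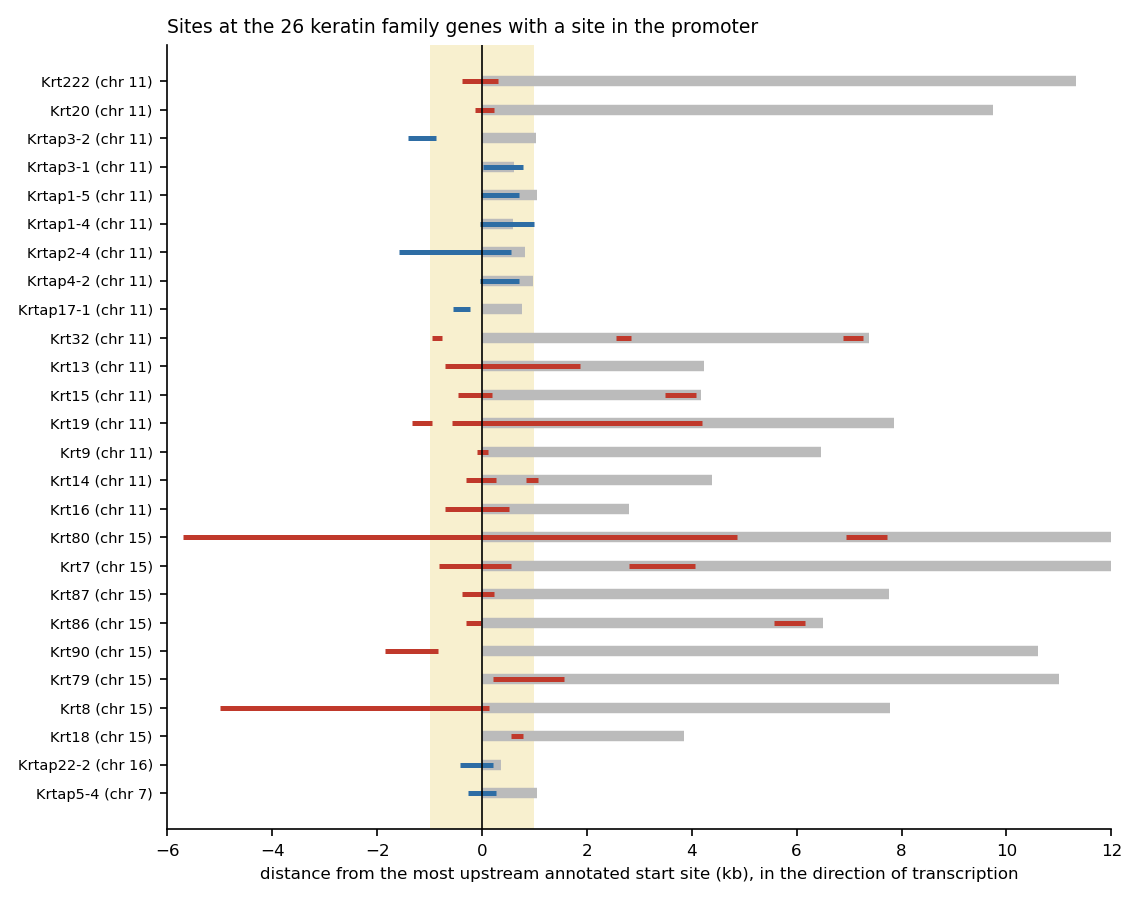
Extent of the sites (red at keratins, blue at keratin-associated genes) relative to the most upstream TSS, in kb along the direction of transcription, for the 26 members with a promoter site. Grey bars are the genes, cut off at 12 kb, and the shaded band is the promoter of 1 kb on either side. The site at Krt80 is the widest and extends on both sides of the TSS, and those at Krtap1-5, Krtap1-4, Krtap3-1 and Krtap4-2 start at the TSS.

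Over the 26 members, 28 sites lay in promoters. Of these, 18 spanned the TSS, 6 lay wholly upstream and 4 wholly downstream. Their centres fell outside the gene at 17, in introns at 5, in untranslated exons at 3 and in coding exons at 3. The median promoter with a site was covered over 704 bp, against 1330 bp for all protein-coding promoters with a site. Sites at members had a median width of 639 bp (49 sites, 200 to 10559 bp), close to the 603 bp of all sites.

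The members without a site nearby were the larger number. In 71 of 110 no site lay in promoter or body, and the nearest was 1050 to 76360 bp away with a median of 12668 bp. Over all members the median distance from TSS to nearest site was 6459 bp, against 103 bp over the 21755 protein-coding genes on chromosomes that hold a site. Yet 52 members (47.3%) had a site within 5 kb, against 71.8% of all genes. Most members (106) lack a CpG island. Of the 10116 protein-coding genes without an island, 45.3% had a site within 5.01 kb and 49.5% within 7.08 kb. As a whole the family was near the share of these genes, but its parts lay on either side of it. A site lay within 5 kb at 34 of 53 keratins (64.2%) and at 18 of 57 keratin-associated genes (31.6%). In olfactory and vomeronasal receptor genes, another clustered family, 24 of 1464 promoters held a site (1.64%, 1.10 to 2.43) and the median distance was 131194 bp. Of these receptors 5.12% had a site within 5 kb, and 1463 lack an island and so count among the 10116 genes.

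**Figure D3:**
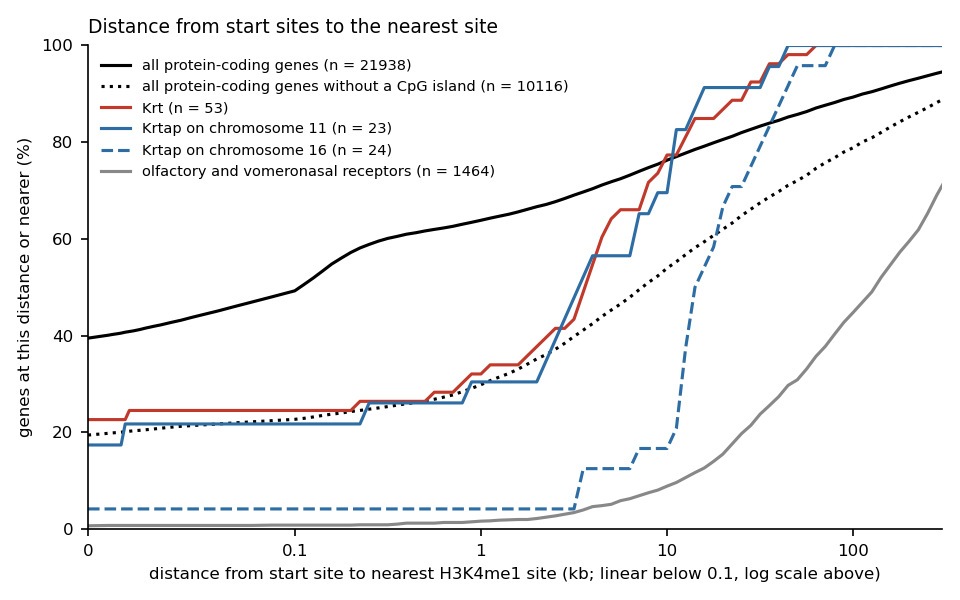
Percent of genes (vertical axis) whose most upstream TSS lies at a given distance or nearer to an H3K4me1 site (horizontal axis in kb, linear below 0.1 and logarithmic above). The 183 genes of chromosome Y, which holds no site, count as not near in the black lines. Keratins and the keratin-associated genes of chromosome 11 run near the line of all genes without a CpG island up to about 1 kb. At 5.01 kb they lie above it, at 64.2% and 56.5% against 45.3%. The keratin-associated genes of chromosome 16 stand at 4.17% up to about 3 kb, at 16.7% at 10 kb and at 50% at 14.1 kb.

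Members joined over gaps of at most 500 kb formed 3 large clusters. The cluster on chromosome 11 (chr11:99232761-100269871) held 50 members in 1037 kb, that on chromosome 15 (chr15:101347444-102032027) 26 in 685 kb and that on chromosome 16 (chr16:88610705-89571183) 24 in 960 kb. Chromosome 11 had 100 sites in its cluster, 96.4 per Mb against 81.6 over the whole chromosome, with 7.51% of bases covered against 8.67%. Chromosome 15 had 51, 74.5 per Mb against 81.9, with 10.4% covered against 7.99%. By total length both were therefore near the chromosome's own density. Per Mb outside masked repeats, the cluster on chromosome 11 had 131 sites against 118 over its chromosome. By the same measure that on chromosome 15 was lower than its chromosome, 94.9 against 121. The cluster on chromosome 16, which holds only keratin-associated genes, had 17 sites, 17.7 per Mb against 63.0, with 0.792% of bases covered against 5.46%.

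Of 75-base words in these clusters, 94.0% on chromosome 11, 96.2% on chromosome 15 and 92.4% on chromosome 16 occurred at a single place of the genome. Most of the chromosome 16 cluster could thus be read uniquely at this length, but not evenly. In bins of 50 kb from its first base, the lowest share was 66.4%, at 550 to 600 kb, where Krtap20-2 lies. That bin held no site. Other full bins without a site had 75.5% (700 to 750 kb) and 82.9% (150 to 200 kb) of words unique. Shares of 95.8% (600 to 650 kb), 97.0% (450 to 500 kb) and 99.5% (750 to 800 kb) were also found in such bins. The part of copied sequence in the low count of sites was not tested. The smaller groups of keratin-associated genes held 2 sites in 130 kb on chromosome 7, none in 117 kb on chromosome 10 and none in 20.4 kb on chromosome 1, with 90.3%, 85.7% and 99.4% of words unique.

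**Figure D4:**
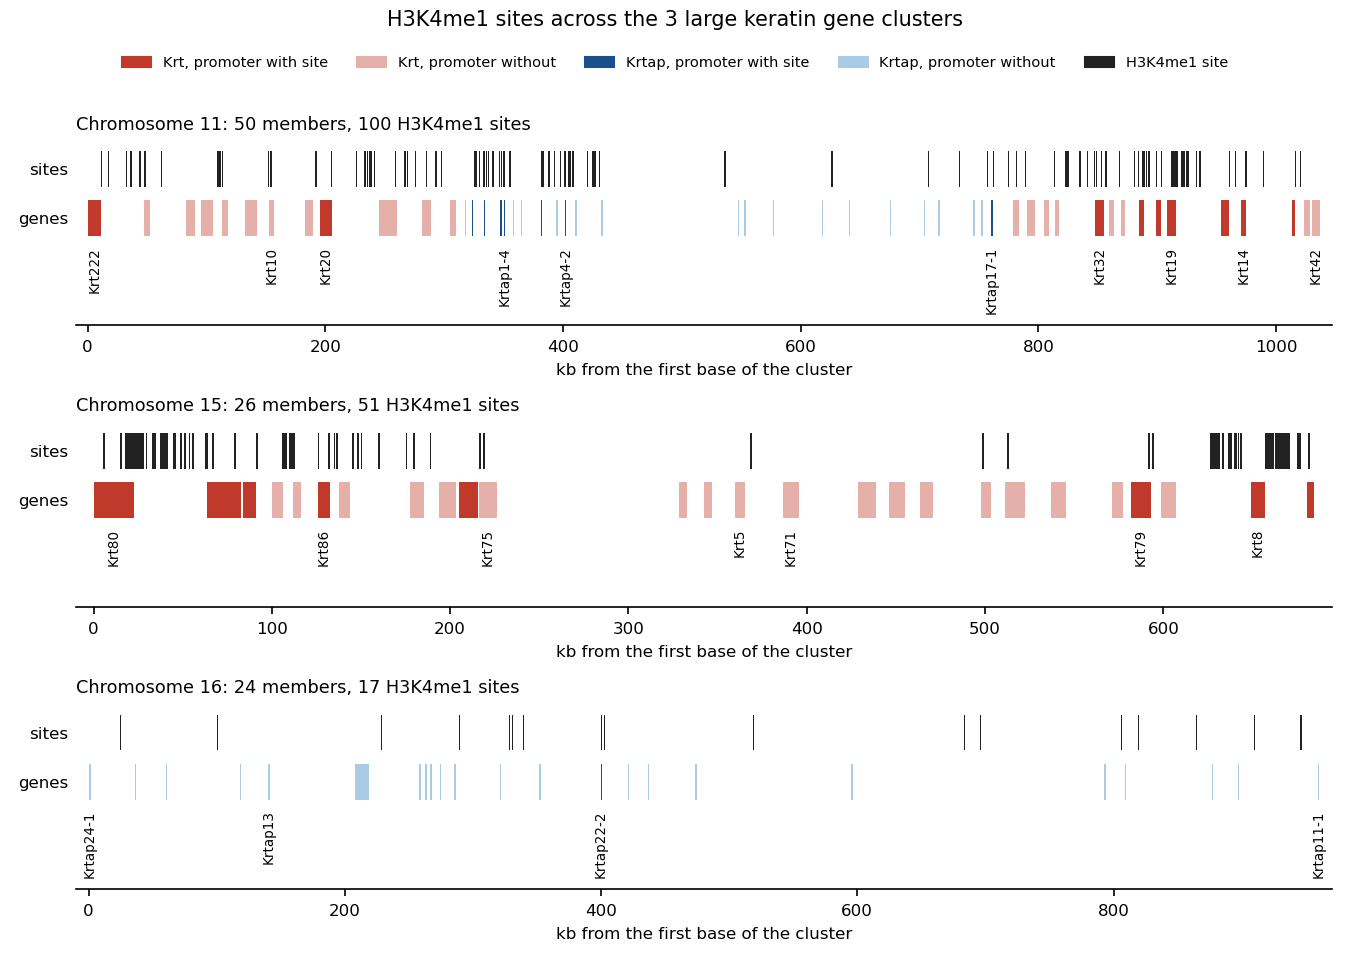
Map of the 3 large clusters in kb from the first base of each, with H3K4me1 sites (black, upper rows) and genes (lower rows, keratins red and keratin-associated genes blue, dark with and light without a promoter site). Short sites and genes are widened so that they can be seen. On chromosome 15 few sites lie between Krt75 and Krt79, and on chromosome 16 only Krtap22-2 is dark.

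The chromosome 11 cluster was uneven. Its first keratins, Krt222 to Krt40, had 29 sites (93.4 per Mb) and 2 of 12 promoters with a site. The keratin-associated block that follows had 34 sites (76.6 per Mb) and 7 of 23. The hair keratins Krt33a to Krt36 had 12 sites and 1 of 7. Krt13 to Krt42, which include Krt14, Krt15, Krt16 and Krt19, had 21 sites (138 per Mb), 14.6% of bases covered and 6 of 8 promoters with a site.

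Within the keratin-associated block the sites lay on one side of its longest gap between neighbouring members, a division made after the values were seen. From Krtap3-3 to Krtap4-6 there were 27 sites in 116 kb (233 per Mb), 16.4% of bases were covered and 6 of 12 promoters held a site. From Krtap4-8 to Krtap17-1 there were 5 sites in 214 kb (23.3 per Mb), 1.35% of bases were covered and 1 of 11 promoters, that of Krtap17-1, held a site. Unique 75-base words made up 96.7% of the first stretch and 79.0% of the second, and the promoter of Krtap4-13 in the second had 53.5%, the lowest of any member. The part of copied sequence in this contrast was not tested.

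The longest stretch of the cluster without a site was 104.6 kb and took in Krtap4-6. In 50 kb bins from the start of the cluster, the densest were 300 to 350 kb (Krt40 to Krtap1-5) and 850 to 900 kb (Krt32 to Krt13), each with 11 sites, where the chromosome's median bin held 3. Of all bins of chromosome 11, 7.75% held as many.

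Sites were unevenly spread over the chromosome 15 cluster. Krt80 to Krt87 had 17 sites in 91.4 kb (186 per Mb), 29.4% of bases covered and a site in 3 of 3 promoters. Krt8 and Krt18 at the other end had 6 sites in 35.3 kb and 42.0% covered. Krt88 to Krt75, mostly hair keratins next to Krt87, had 15 sites in 126 kb (119 per Mb), 11.1% covered and 2 of 8 promoters with a site, and 6 of the 8 had one in promoter or body. Further along, Krt6b to Krt5 had none, and Krt71 to Krt78 had 4 sites in 220 kb (18.2 per Mb), with a site in 1 of 10 promoters, that of Krt79. The longest stretch without a site was 149 kb and took in Krt6b, Krt6a and Krt5. Low cover thus ran from Krt6b to Krt78, where Krt1, Krt77 and Krt79 were the members with a site.

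Cover between neighbouring members also varied. The 40.9 kb between Krt80 and Krt7 held 12 sites over 43.0% of its bases, and the 23.7 kb between Krt8 and Krt18 held 5 over 61.1%. The 42.4 kb between Krt78 and Krt8 held 8 sites over 25.7%. Over the cluster, 4 divergent intervals were covered over 39.3% of their bases, 3 convergent intervals over 46.9% and 18 tandem intervals over 4.40%. The convergent value came mainly from the interval between Krt88 and Krt81, covered over 79.8%. The other 2 divergent intervals, between Krt87 and Krt88 and between Krt81 and Krt86, were covered over 4.23% and 2.92%. The value for divergent genes therefore rested on the 2 pairs that include Krt7 and Krt8. On chromosome 11, 45 tandem intervals were covered over 7.87% and 2 divergent intervals over 6.06%.

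On chromosome 16 the 17 sites were short, with a median of 372 bp and a widest of 1114 bp, and 16 of them lay between genes. Krtap22-2, a glycine- and tyrosine-rich type by family, was the only one of 24 members with a site at its promoter (4.17%, 0.739 to 20.2), and the median distance to the nearest site was 13850.5 bp. Sites also lay 3213 bp from Krtap6-2 and 3365 bp from Krtap19-5. The longest stretch without a site was 164 kb and took in Krtap20-2. By the class of site, chromosome 11 had 67 of 100 between genes and chromosome 15 had 32 of 51.

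The borders of the clusters were compared with the sequence outside. On chromosome 11 the lower end was Krt222, whose own promoter held a site, and the next site outside lay 648 bp away. The first gene outside was Smarce1, a subunit of SWI/SNF chromatin remodellers, 1743 bp away with 2 promoter sites. At the upper end, Krt42, the next site was 8083 bp out and the first gene was the translation factor gene Eif1, 50.0 kb out, with a promoter site. Within 100 kb of the lower end 8 sites lay inside and 10 outside, and at the upper end 7 inside and 13 outside. Bases covered were 6.27% inside and 7.91% outside at the lower end, and 4.30% and 14.7% at the upper end.

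On chromosome 15 both borders lay in covered sequence. The next site was 3127 bp out from Krt80 and 1875 bp out from Krt18. Within 100 kb there were 17 sites inside and 19 outside the lower end (27.3% and 26.8% of bases), and 16 inside and 29 outside the upper end (28.2% and 32.1%). No step in cover marked these borders. The first outside genes with a promoter site were Atg101, an autophagy gene 56.5 kb below Krt80, past 6030408B16Rik, which had none, and Eif4b, a translation factor gene 41.7 kb above Krt18.

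On chromosome 16 the borders differed from each other. The next site was 9392 bp out from Krtap24-1 and 12575 bp out from Krtap11-1, and the 100 kb outside held 7 and 2 sites (4.19% and 0.556% of bases) against 2 and 3 inside (0.490% and 1.68%), where the whole chromosome had 5.46% of bases covered. More sites thus lay outside than inside the lower border, and both sides of the upper border were sparse. Going out from Krtap24-1, the claudin gene Cldn8 had no promoter site, and the first gene with one was the glutamate receptor gene Grik1, 320 kb away. On the other side it was Tiam1, an activator of the GTPase Rac, 216 kb away, with its whole 2001 bp promoter covered.

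**Figure D5:**
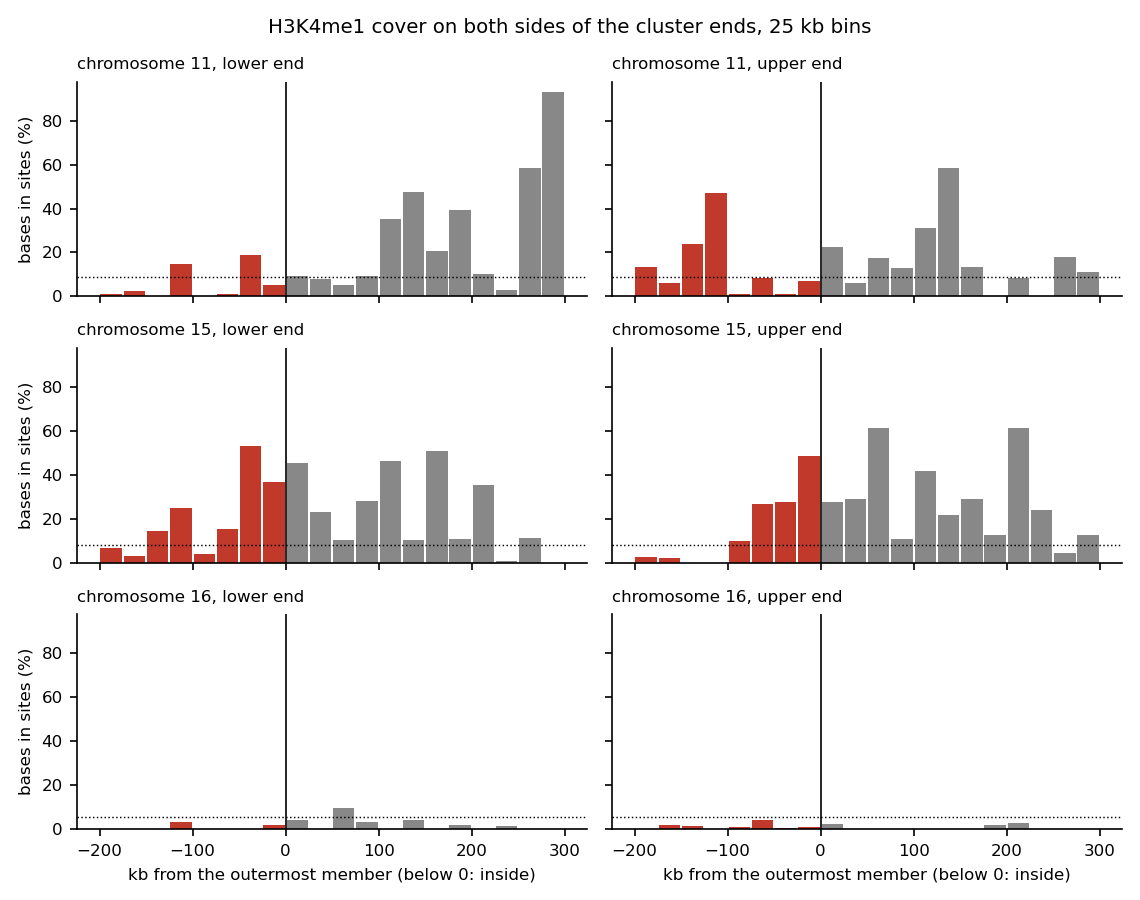
Percent of bases inside H3K4me1 sites in bins of 25 kb on both sides of the outermost members of the 3 large clusters (red inside, grey outside). The dotted line is the value of the whole chromosome. Cover stays above the dotted line in most bins near both borders on chromosome 15. On chromosome 16 it lies below the line in every bin but 1, that of 50 to 75 kb outside the lower border (9.44%), and wide covered stretches lie 250 to 300 kb outside the lower border on chromosome 11.

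Other protein-coding genes lie between members, most of them known only by number. Of the 18 on chromosome 11, Gm11939, Gm11562, Gm11563 and Gm11568 had a promoter site, over 496, 1484, 1677 and 762 bp. None of 3 on chromosome 15 and none of 14 on chromosome 16 had one. The first 3 lie in the stretch from Krtap3-3 to Krtap4-6.

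Genes that work with keratins were described for comparison. Of 16 other intermediate filament genes, 14 had a promoter site, among them Vim with its whole 2001 bp covered, and Bfsp1 (lens) and Gfap (astrocytes) had none. Of 16 desmosome genes, whose proteins anchor keratin filaments at cell junctions, 11 had one, with 1950 bp covered at Pkp4 and 1671 bp at Dsp. Of 6 plakins and linkers 4 had one, Plec over 1972 bp. Of 20 cornified envelope genes 8 had one, Sprr1a over 1373 bp, while Cnfn and Flg had none. Of 20 regulators of epithelia and hair 14 had one, Esrp2 over its whole 2001 bp, while Ehf, Elf3, Grhl2 and Hoxc13 had none. In the order given the shares were 87.5%, 68.8%, 66.7%, 40.0% and 70.0%, against 63.9% of all protein-coding genes. The desmosome, plakin and regulator lists thus stood near the share of all genes.

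These lists differ in their CpG islands as well as in their sites. An island lay at 13 of 16 other intermediate filament genes, 8 of 16 desmosome genes, 4 of 6 plakins, 15 of 20 regulators and none of 20 cornified envelope genes, which were the list most like the keratins in both respects.

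The sites of the whole set were set against markers of cell type. A promoter site was present at 13 of 15 fibroblast markers, all but Col3a1 and Lum, and at 10 of 14 epithelial markers, all but Cldn7, Elf3, Grhl2 and Rab25. These are 86.7% and 71.4%, against 63.9% of all protein-coding genes. A CpG island lay at 10 of the 14 epithelial and 7 of the 15 fibroblast markers. Without an island, 2 of 4 epithelial and 6 of 8 fibroblast markers held a promoter site. Promoter sites alone thus did not separate the 2 lists by presence, and the median promoter with a site was covered over 1953 bp at fibroblast and 897 bp at epithelial markers. Whether any member is transcribed in these cells was not measured here.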

How the data were processed

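The deposited values are positions in bases of each H3K4me1 site, start counted from 0, in one table over 12 H3K4me1 libraries. Per the labels and the study's methods, the authors used Trim Galore for trimming, BWA for alignment to mm10, SAMtools for filtering, Picard to merge replicates, and Macs to call broad peaks. Versions and thresholds are not given in the sources used here. The table holds no counts, so replicates, time points and depth could not be assessed, and a site present in 1 condition cannot be told from one present in all.

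Sites were overlaid on GENCODE M21 (M25, named in the study, was not used here) in Python 3.11.15 with numpy 2.4.6 and pandas 2.3.3, with at least 1 bp of overlap, and the overlap code was tested on simulated data. Coordinates are counted from 1. CpG islands followed the UCSC rule on repeat-masked sequence (at least 200 bp, 50% GC, observed to expected CpG 0.6). Of the members, 84 have a single annotated TSS. Members and lists were chosen with earlier results of these data known. Named genes were the 30 members with the most bases in sites, 12 fixed keratins, the genes at cluster borders, non-member genes with a promoter site between members, and up to 4 genes per partner list. Others were named after their values were seen. No sample was left out.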

Additional observations from a re-analysis of the deposited data

How the results depend on the processing

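No paired analysis was possible because sites are given as one set without values for single libraries, and for the same reason no replicate could be left out. Over 16 counts and distances and 46 alternatives, 37 left the value unchanged or, for counts, within 1.5 times. When sites under 500 bp were dropped, 57 sites were left in the cluster on chromosome 11 and 5 in that on chromosome 16. The longest site-free stretches were then 129680 bp on chromosome 11, 279214 bp on chromosome 15 and 506628 bp on chromosome 16, and the next site outside lay 16736 bp from the upper end on chromosome 11 and 202592 bp from that on chromosome 16. These moves follow from fewer sites. Leaving out the 1 kb next to the TSS, 22 gene bodies of members held a site in place of 36. No member had a CpG island of at least 500 bp within 1 kb (0 in place of 4). Promoters of members with a site numbered 20 to 29 (18.2% to 26.4%) over 7 alternatives. Among these was the RefSeq start (26), which was chosen after seeing the data and was not run for all genes. Over the other alternatives, 59.6% to 67.8% of all protein-coding promoters held a site. Depth is unknown, so the lack of a site is the lack of a call and not of the mark.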
